A study of Mus musculus with 18 samples.

Results

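The comparison was between 2 sets of mouse embryo fibroblast (MEF) lines that all carried a normal complement of chromosomes. They were chosen from the sample titles: 4 wild-type lines have titles that begin with MEF-776, MEF-780 (2 lines) and MEF-666, numbers also found in the titles of the trisomy 13 lines, and 3 wild-type lines have titles that begin with MEF-89 (2 lines) and MEF-92, numbers also found in the titles of the trisomy 16 lines. The 4 are called 13-matched controls here (replicate 4 of the labels, from MEF-776, replicates 5 and 6, from MEF-780, and replicate 7, from MEF-666) and the 3 are called 16-matched controls (replicates 1 and 3, from MEF-89, and replicate 2, from MEF-92), so 7 of the 18 arrays of the series entered the comparison. No measured value was used to choose them. The rest of the series holds 2 further control lines (replicate 8, MEF-1113, and replicate 9, MEF-836), 4 lines with an extra chromosome 13, 3 with an extra chromosome 16, 1 with an extra chromosome 1 and 1 with an extra chromosome 19. Every line was grown for 2 passages in DMEM with 10% fetal calf serum, and biotin-labelled cRNA from total RNA was hybridised to 1 array per line. The labels give no genetic modification or agent for any control line. The labels used here do not say what this first number stands for, nor do they give the parents, strain, sex or age of the embryos. Since nothing says that the lines of a set came from separate embryos, the p-values cover only line-to-line spread, which may be technical in part, and 2 lines of each set share a first number.

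MEFs are cultured from dissociated embryos, so a line holds fibroblasts from many body regions, and its expression depends on which regions and which stage contributed. Fibroblasts are known to keep part of the positional program of the tissue they came from, including Hox genes along the body axis and regulators of limb and face. Their cultures also differ in how fast they divide, in how far they take on contractile myofibroblast features, and in stress and secretory gene expression.

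Values are on the log2 scale, so a difference of 1 is a 2-fold change, and differences are given as 13-matched minus 16-matched, with the standard error (SE) of the fit. The table of 22690 probe sets gave 12394 named genes, 1 probe set each, of which 7382 had a mean of at least 4 over the 18 arrays and were tested. The values ran from 0.968 to 16.6. On the 7 arrays compared, the Gapdh control probe sets at the 3' and 5' ends of the transcript differed by between -0.20 and 0.69, while 3 trisomic arrays were 3'-biased by more than 3: trisomy 16 replicate 1 (6.55), trisomy 13 replicate 3 (6.94) and trisomy 13 replicate 4 (5.57). Correlations over all probe sets were 0.9909 to 0.9966 within the 13-matched set, with the highest for the MEF-780 pair. Within the 16-matched set they were 0.9879 and 0.9873 between lines of different first number and 0.9771 between the MEF-89 lines. Between the sets they were 0.9763 to 0.9865, so the MEF-89 pair was as far apart as lines of different sets. All 16 fibroblast markers written down were tested, and their mean level on an array was 13.2 to 13.9 in the 13-matched and 12.9 to 13.6 in the 16-matched lines.

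Transcripts of the sex chromosomes did not fall evenly over the sets. Xist, the RNA that coats the inactive X chromosome of female cells, was at 2.35 on 13-matched replicate 4 and at 13.6, 13.4 and 13.2 on replicates 5, 6 and 7. The 16-matched lines had Xist at 2.36, 2.33 and 2.27. Xist was therefore high in 3 of 4 lines of one set and in 0 of 3 of the other, and the sets overlapped through replicate 4. Y-linked transcripts ran the other way: Eif2s3y, which encodes a translation initiation factor subunit, was at 10.8 on replicate 4, at 3.13, 2.88 and 2.85 on replicates 5, 6 and 7, and at 10.0, 10.4 and 10.3 on the 16-matched lines. Kdm5d, a histone demethylase gene, was at 7.64 on replicate 4, between 2.30 and 2.33 on the other 13-matched lines and between 6.78 and 7.99 on the 16-matched lines. Uty, also on the Y chromosome, was at 7.94, at 2.49 to 2.54 and at 6.24 to 6.74 in the same order. None of the 4 passed the test (Xist 8.33 ± 2.51 SE, limma adjusted p = 0.096). Because this marker difference lies along the comparison, values on replicate 4, the 13-matched line without Xist signal, are given beside the gene groups below.

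The sets differed in 288 of 7382 genes (3.9%) by limma at a Benjamini-Hochberg adjusted p below 0.05. Of these, 193 (2.61% of the genes tested) were higher and 95 (1.29%) were lower in the 13-matched controls. All 288 had no overlap between the sets, a property that 1564 of the 7382 genes (21.2%) shared, and 1747 genes (23.7%) had an unadjusted p below 0.05. The median difference was 1.58 among the called genes that were higher and -1.18 among those that were lower, against 0.04 over all genes tested. A difference of more than 1 was seen in 213 of the called genes, and of more than 2 in 80. For 23 of them the 16-matched mean and for 4 the 13-matched mean lay below 4, near the low end of the scale, and the other 261 were at 4 or more in both sets.

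The number of calls depended on single lines. It was 149 without 16-matched replicate 1, 57 without replicate 2 and 1175 without replicate 3, and it was 328, 32, 26 and 29 without 13-matched replicates 4, 5, 6 and 7. Since no called gene overlaps between the sets, leaving out a line cannot turn a direction, and these fits bear only on the calls. With the Xist level as a covariate 1 gene, Ifi202b, was called, and with 13-matched replicate 4 alone against the 16-matched lines 0 were called. On replicate 4 the called genes reached, at the median, 81.3% of the difference shown by the other 3 lines of its set. The corresponding values for replicates 5, 6 and 7 were 103%, 109% and 111%. These shares are in part fixed by the calls, since every called gene has replicate 4 on the side of its own set. Genes in which replicate 4 was like the 16-matched lines, such as Xist, were not called and do not enter. How much of the difference belongs to sex-linked expression was not tested further.

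**Figure D1:**
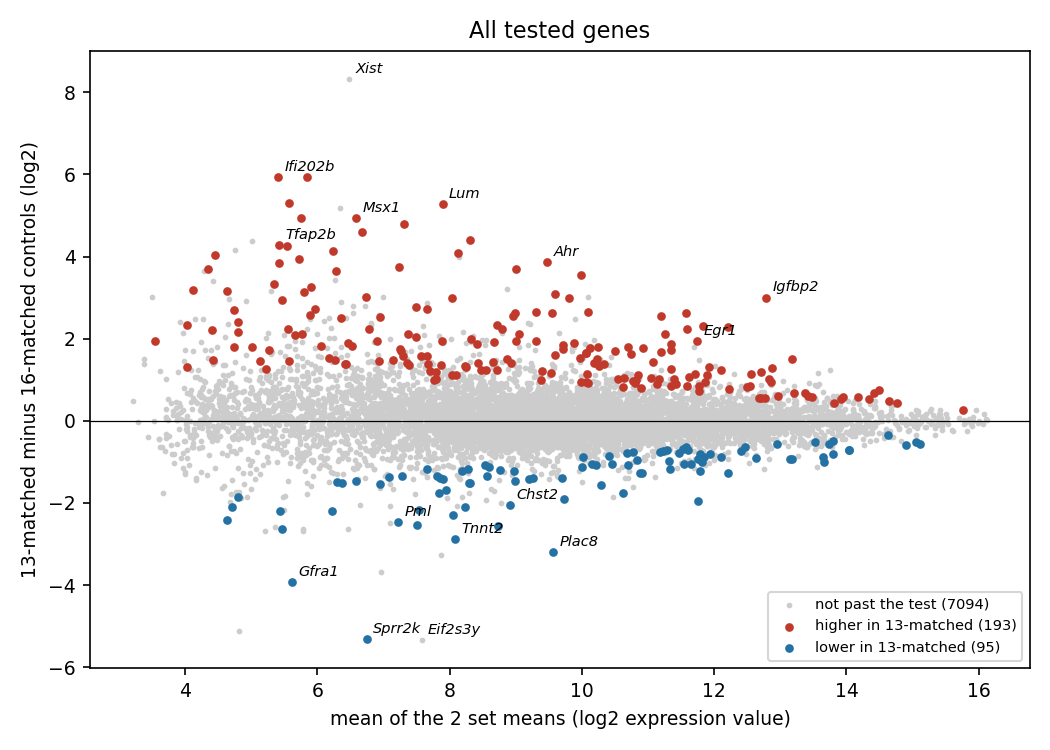
Each point is 1 of 7382 genes, with the average of its mean log2 levels in the 2 sets on the horizontal axis and the difference, 13-matched minus 16-matched, on the vertical axis. The 193 called higher genes and the 95 called lower genes are coloured, and they reach up to 5.95 (Cbr2) and down to -5.32 (Sprr2k); Xist, at 8.33, and Eif2s3y did not pass the test.

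Of the 95 genes named here, 55 were called, and 11 of these stayed called when any 1 of the 7 lines was left out: Cbr2, Ifi202b, Il1rn, Msx1, Tfap2b, Mmp3, Igfbp2, Egr1, Ier2, Atf4 and Plac8. The first 10 were higher and Plac8 was lower in the 13-matched lines. Each of the other 44 lost the call without at least 1 of 13-matched replicates 5, 6 and 7. Of the 55, 15, 12 and 12 stayed called without replicates 5, 6 and 7 in turn, and 33, 19 and 55 without 16-matched replicates 1, 2 and 3. Without 13-matched replicate 4, 48 stayed called, and the 7 that did not were Actg2, Mcam, Pttg1, Vcan, Gadd45a, Uqcrb and Canx. Centring the arrays on their medians ended the calls of Gadd45a, Fdft1 and Canx, and quantile normalization that of Uqcrb. Of the 11, Atf4 lost its call when its probe sets were averaged, and Mmp3, Ier2 and Atf4 lost theirs when all 18 arrays shared 1 estimate of the spread. Values below are in the order of replicates 4, 5, 6 and 7 for the 13-matched and 1, 2 and 3 for the 16-matched controls.

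Ifi202b, an interferon-inducible gene of a cytosolic DNA-binding protein family whose expression is known to vary among inbred mouse strains, had the smallest adjusted p. It was at 8.41, 8.38, 8.77 and 7.96 in the 13-matched and at 2.50, 2.41 and 2.42 in the 16-matched controls. The sets were far apart, with a gap well beyond the spread within either, and the difference was 5.94 ± 0.26 SE (limma adjusted p = 4.5e-05). The 16-matched values are at the low end of the scale, so no fold is given. Ifi202b was low in both other controls, at 2.53 and 2.51, so its level split the 9 control lines into 4 high and 5 low, unlike Xist. In lines with an extra chromosome it was at 8.42, 8.73, 9.40 and 10.0 with trisomy 13, at 2.73, 2.43 and 2.47 with trisomy 16, at 8.03 with trisomy 1 and at 2.63 with trisomy 19. Replicate 9 and the trisomy 1 line both come under MEF-836 but lay on opposite sides. The family has near-identical copies that can share probes, so the signal is uncertain as to which copy gave it, and since the labels give no strain, its part in this difference was not tested. Of 6 tested genes listed as known to vary in copy or sequence between mouse strains, only Ifi202b was called. Over all genes 3.9% were called. The list's median was 0.16, and the next gene by p, Glo1, differed by 0.73 (limma adjusted p = 0.12).

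Cbr2, which encodes a carbonyl reductase, had the largest difference among the called genes, close to that of Ifi202b. It was at 7.36, 8.80, 9.91 and 9.18 in the 13-matched lines and at 3.35, 2.09 and 3.15 in the 16-matched lines. The sets did not overlap, replicate 4 was the lowest of its set, and the difference was 5.95 ± 0.58 SE (limma adjusted p = 0.0046). The 16-matched mean was 2.87, under 4 as for Chodl, Il1rn, Tfap2b and Mmp3 below. Differences from values near the low end of the scale are uncertain in size. The other controls, at 6.98 and 7.23, lay between the sets and nearer the 13-matched lines. The 250 bases before its start site are shown because they hold a match to the CArG box, the sequence bound by serum response factor, which drives serum response and contractile genes. It is the RefSeq sequence of chr11:120732022-120732271 on the minus strand of GRCm38.p6, written 5' to 3' with the match in capitals, from base -108 to base -99 before the start site.
Cbr2: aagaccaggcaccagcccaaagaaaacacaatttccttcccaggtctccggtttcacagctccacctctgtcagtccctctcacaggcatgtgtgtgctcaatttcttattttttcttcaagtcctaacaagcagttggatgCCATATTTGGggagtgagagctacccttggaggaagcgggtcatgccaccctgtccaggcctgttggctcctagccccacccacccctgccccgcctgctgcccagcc
A CArG box on either strand was found in 1.47% of the 32851 promoter windows of this length in the table, and in 91 of 6071 tested genes with a window (1.5%). Among called genes with a window, 6 of 157 higher and 3 of 67 lower ones held it.

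Msx1 and Tfap2b are transcription factor genes of neural crest and limb development. Msx1 was at 7.57, 9.15, 9.61 and 9.89 against 4.31, 3.69 and 4.39, a difference of 4.93 ± 0.53 SE (limma adjusted p = 0.0059). Tfap2b was at 6.95, 7.15, 8.08 and 8.12 against 3.37, 3.17 and 3.32, a difference of 4.29 ± 0.35 SE (limma adjusted p = 0.0040). Both genes separated the sets without overlap, with replicate 4 again the lowest 13-matched line. The other controls were at 7.42 and 9.22 for Msx1 and, farther apart, at 4.38 and 6.78 for Tfap2b.

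**Figure D2:**
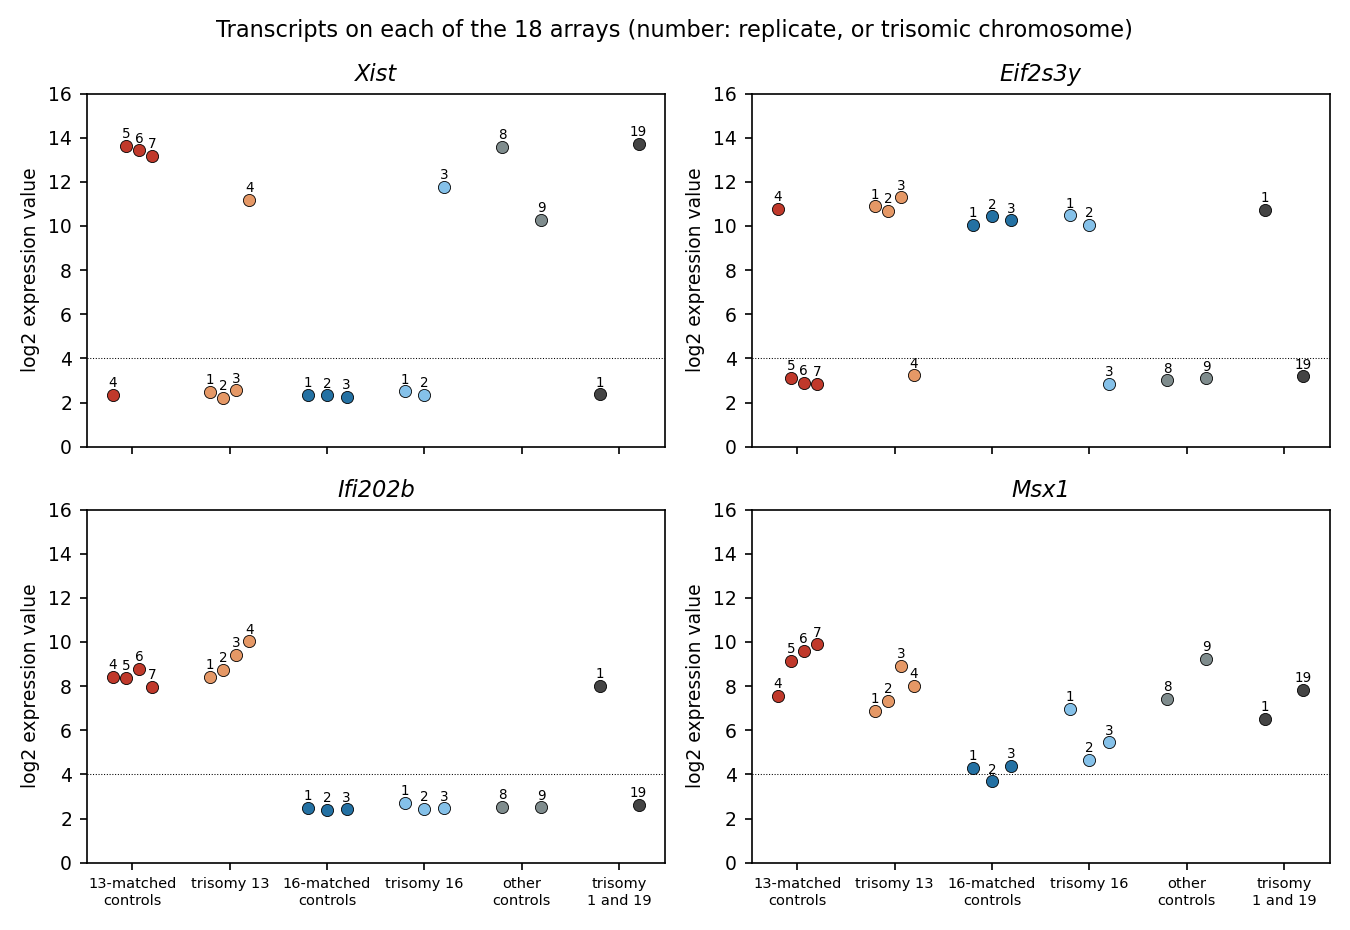
Log2 expression values of Xist, Eif2s3y, Ifi202b and Msx1 are plotted for each of the 18 arrays by group, with the replicate (or the extra chromosome 1 or 19) printed over each point and a dotted line at 4, the mean needed for testing. Xist was high and Eif2s3y low on 13-matched replicates 5, 6 and 7, while Ifi202b was at 7.96 or more on all 4 13-matched lines and at 2.50 or less on the 3 16-matched lines.

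Il1rn encodes the receptor antagonist that blocks interleukin-1 signalling, and Mmp3 the matrix protease stromelysin. Il1rn was at 7.65, 7.76, 8.84 and 8.66 against 3.41, 2.11 and 4.33 (4.94 ± 0.54 SE, limma adjusted p = 0.0059). Mmp3 was at 7.79, 8.49, 6.89 and 7.51 against 4.10, 3.70 and 2.46 (4.25 ± 0.49 SE, limma adjusted p = 0.0060). In Mmp3 replicate 4 lay inside the range of the other 13-matched lines. Igfbp2, a secreted binding protein of insulin-like growth factors, was abundant in both sets, at 13.8, 14.3, 14.5 and 14.6 against 12.01, 10.6 and 11.3. Its difference was 3.00 ± 0.32 SE (8.01-fold, limma adjusted p = 0.0059), with no overlap.

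Egr1, Ier2 and Atf4 showed smaller differences with little spread within a set. Egr1, an immediate early transcription factor gene induced by serum, was at 12.7, 12.7, 12.3 and 13.1 against 10.9, 10.8 and 10.6 (1.93 ± 0.18 SE, limma adjusted p = 0.0046). Ier2, another immediate early gene, was at 10.8, 10.8, 10.8 and 11.2 against 9.01, 9.29 and 9.40 (1.65 ± 0.19 SE, limma adjusted p = 0.0059). Atf4, the transcription factor of the integrated stress response, was at 13.4, 13.3, 13.3 and 13.3 against 12.4, 12.2 and 12.3 (1.03 ± 0.10 SE, limma adjusted p = 0.0046). A further Atf4 probe set gave 0.03 (limma adjusted p = 0.94 over all probe sets), so its probe sets disagree. On replicate 4 these 3 genes were at the level of the other 13-matched lines. Plac8, a small cysteine-rich protein gene first known from placenta, was the 1 of the 11 that was lower: 8.04, 8.24, 8.53 and 7.05 against 11.1, 11.8 and 10.6 (-3.20 ± 0.40 SE, limma adjusted p = 0.0091).

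The other genes among the 12 with the largest higher levels were matrix, receptor and enzyme genes for which replicate 4 stood between its set and the 16-matched lines. Lum, which encodes the collagen-binding proteoglycan lumican, was at 7.64 on replicate 4 and at 11.5, 11.8 and 11.2 on replicates 5, 6 and 7, against 3.60, 6.10 and 6.08. Its difference was 5.27 ± 1.04 SE (limma adjusted p = 0.033). Chodl, a membrane lectin gene, was at 5.25 on replicate 4 and at 9.55, 9.44 and 8.61 on the others, against 3.15, 2.75 and 2.86 (5.29 ± 0.94 SE, limma adjusted p = 0.025). Both thus had their lowest 13-matched value on replicate 4, still above every 16-matched line. Abi3bp, an extracellular matrix gene, was at 6.97 on replicate 4 and 9.75 to 11.4 on the other 3, against 4.31 to 5.37 (4.78 ± 0.92 SE, limma adjusted p = 0.031). Agtr2, the X-linked gene of an angiotensin receptor, was at 6.07 and at 9.03 to 10.6, against 3.76 to 5.28 (4.61 ± 0.99 SE, limma adjusted p = 0.042). Cxcl5, a chemokine that attracts neutrophils, was at 8.86 and at 9.98 to 11.7, against 4.43 to 7.54 (4.41 ± 0.86 SE, limma adjusted p = 0.031), and Cyp7b1, an oxysterol hydroxylase gene, differed by 4.13 ± 0.57 SE (limma adjusted p = 0.014). The calls of these 6 genes were lost without 13-matched replicate 5, 6 or 7, and all but Cyp7b1 also without 16-matched replicate 2.

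The 12 genes with the largest lower levels included contractile, epithelial-barrier and channel genes. Sprr2k, a cornified envelope protein gene of a multigene family, was at 5.66, 3.07, 2.71 and 4.90 in the 13-matched and at 9.77, 11.1 and 7.30 in the 16-matched controls (-5.32 ± 0.99 SE, limma adjusted p = 0.028). Gfra1, the co-receptor gene of the neurotrophic factor GDNF, was at 2.70, 5.03, 4.24 and 2.68 against 6.42, 8.01 and 8.32 (-3.92 ± 0.68 SE, limma adjusted p = 0.024). Tnnt2, the gene of cardiac troponin T, was at 6.97, 5.70, 7.09 and 6.79 against 10.1, 9.47 and 9.04 (-2.89 ± 0.39 SE, limma adjusted p = 0.013). No 13-matched line reached the 16-matched range in these 3 genes, and replicate 4 was not the line nearest to it in Gfra1 or Tnnt2. Pml, which organises nuclear bodies, was at 6.45, 6.5, 5.58 and 5.43 against 8.36, 8.81 and 8.20 (-2.47 ± 0.34 SE, limma adjusted p = 0.014). Bdh1, an enzyme gene of ketone body metabolism, was at 5.95 to 6.47 against 7.86 to 9.35 (-2.54). Kcnab1, a potassium channel subunit gene, was at 6.70 to 7.93 against 9.23 to 10.5 (-2.55). A further Kcnab1 probe set gave -5.36 (limma adjusted p = 0.0020 over all probe sets). Serpinb6b, a protease inhibitor gene with close paralogs, was at 4.01 to 4.44 against 5.83 to 7.31 (-2.63). Ppp1r14a, an inhibitor of myosin phosphatase, differed by -2.30, Klk8, a secreted serine protease gene, by -2.19 and Tmcc3 by -2.19, all without overlap. The calls of the 12 other than Plac8 rested on several lines: each was lost without 13-matched replicate 7, and each but Hoxb2 without 16-matched replicate 2.

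**Figure D3:**
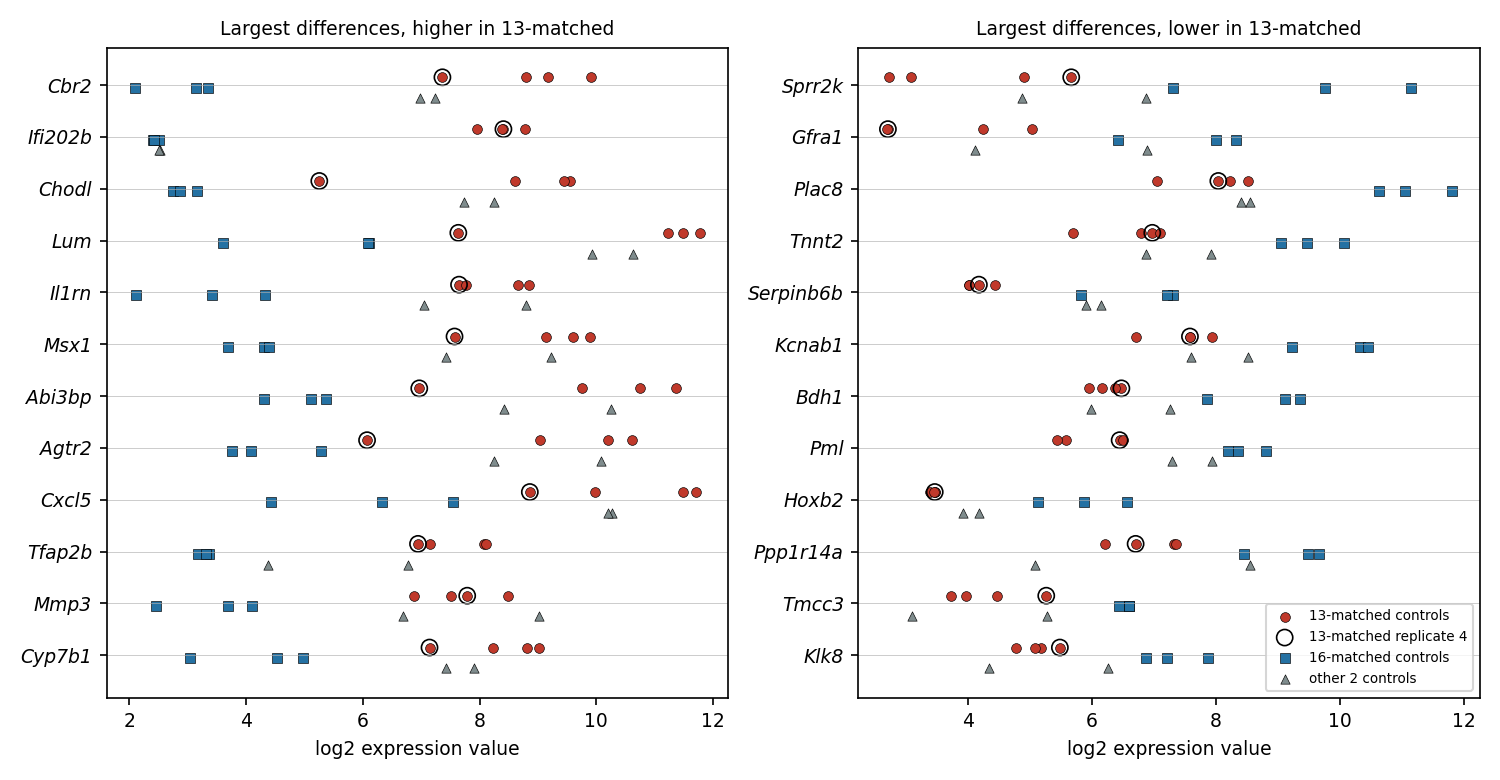
The 12 genes with the largest higher (left) and lower (right) levels in the 13-matched controls are drawn with the log2 expression value of each control line as a point, by set, and replicate 4 ringed. No gene overlapped between the sets, and replicate 4 was the 13-matched line nearest the 16-matched lines for every higher gene drawn except Ifi202b and Mmp3. Among the lower genes drawn it was the nearest for Sprr2k, Bdh1, Tmcc3 and Klk8 but not for the others.

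Positional genes were called in both directions. Of 22 tested regulators of limb, face and body pattern outside the Hox clusters, 5 were called higher and 0 lower, with a median of 0.33, against 2.61% higher and a median of 0.04 over all genes. The 5 were Msx1, Pax3, Lhx2, Irx3 and Lhx9, and the list's median on replicate 4 alone was 0.30. Pax3, a regulator of neural crest and muscle precursors, was at 6.19, 7.34, 6.95 and 7.27 against 4.60, 3.16 and 4.19 (2.95 ± 0.42 SE, limma adjusted p = 0.015). Lhx2, a limb and forebrain regulator, was at 4.56, 5.02, 5.68 and 5.53 against 3.06, 3.27 and 2.25 (2.34 ± 0.38 SE, limma adjusted p = 0.020). The sets did not overlap in either, and replicate 4 was again the lowest of its set. Irx3 differed by 1.74 and Lhx9 by 4.10, the latter with an SD of 2.29 among the 16-matched lines against 0.22 among the 13-matched.

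Of 14 tested Hox genes, 2 were called lower, against 1.29% of all genes, and 0 higher, and the median was -0.73 (-0.60 on replicate 4). Hoxb2, expressed in hindbrain and anterior trunk, was at 3.46, 3.39, 3.46 and 3.45 against 5.86, 6.56 and 5.12 (-2.41 ± 0.35 SE, limma adjusted p = 0.015). Hoxb6 was at 5.76, 5.59, 5.52 and 5.64 against 6.52, 7.43 and 7.46 (-1.51 ± 0.29 SE, limma adjusted p = 0.031). The 13-matched lines were nearly equal in both genes while the 16-matched lines were spread. For Hoxb2 the 13-matched values were near the low end of the scale, which limits what their near equality shows. Hoxc6, also without overlap, was at 3.99 to 4.97 against 5.42 to 8.27 and did not pass (-2.63 ± 0.62 SE, limma adjusted p = 0.054). Among the 14 genes 4 had a difference above 0, the highest at 1.23.

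Smooth muscle and myofibroblast markers were lower in the 13-matched lines where they were called: 3 of 12 tested, against 1.29% of all genes, with 0 higher. The list's median was -0.83 (-0.66 on replicate 4), and 11 of 12 were below 0, against 3453 of all 7382 genes. Myl9, the regulatory light chain of smooth muscle myosin, was at 13.7, 13.7, 13.8 and 13.6 against 14.3, 14.6 and 14.2 (-0.72 ± 0.11 SE, limma adjusted p = 0.017). Tagln, an actin-binding protein of smooth muscle, was at 15.02, 14.7, 14.6 and 15.01 against 15.4, 15.4 and 15.3 (-0.56 ± 0.12 SE, limma adjusted p = 0.041). Actg2, smooth muscle gamma actin, was at 12.8, 12.3, 12.6 and 13.1 against 13.7, 13.9 and 13.3 (-0.94 ± 0.20 SE, limma adjusted p = 0.042). These are abundant transcripts in both sets, and the 3 differences are below 1 in size. The pericyte list held 4 tested genes, of which Mcam, a cell adhesion gene also made by smooth muscle, was called lower at -1.43 ± 0.31 SE (limma adjusted p = 0.042). The list's other tested genes lay above 0 and did not pass, Notch3 at 1.02, Rgs5 at 0.17 and Cspg4 at 0.05. The median of the 4 was 0.11. Acta1, skeletal muscle actin, was at 10.8, 8.50, 9.15 and 9.70 against 11.2, 11.9 and 11.2 and did not pass (-1.86 ± 0.49 SE, limma adjusted p = 0.071). The 250 bases before the Myl9 start site are shown because contractile genes are known targets of serum response factor and this window holds a CArG box, in capitals from base -161 to base -152. It is the RefSeq sequence of chr2:156775214-156775463 on the plus strand of GRCm38.p6, 5' to 3'.
Myl9: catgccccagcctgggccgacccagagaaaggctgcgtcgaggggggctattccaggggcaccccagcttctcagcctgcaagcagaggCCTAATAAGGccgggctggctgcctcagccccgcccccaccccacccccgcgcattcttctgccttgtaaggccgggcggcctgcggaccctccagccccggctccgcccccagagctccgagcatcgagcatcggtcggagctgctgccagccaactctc
Cbr2, which was higher, and Myl9, which was lower, both hold a match, and a match in these letters says nothing about binding.

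Genes of cell division were mostly lower in value without passing the test. Of 33 tested mitosis genes all 33 had a difference below 0, against 3453 of all 7382 genes, with a median of -0.65. Of them 2 were called lower, Ube2c and Pttg1, against 1.29% of all genes. Ube2c, which carries ubiquitin to targets of the anaphase-promoting complex, was at 10.9, 10.7, 10.8 and 10.5 against 12.1, 12.3 and 11.4 (-1.18 ± 0.23 SE, limma adjusted p = 0.031). Pttg1, securin, was at 12.06, 12.01, 11.99 and 12.08 against 13.01, 12.8 and 12.5 (-0.73 ± 0.14 SE, limma adjusted p = 0.034). In both the 13-matched lines were tightly grouped and 16-matched replicate 3 was the nearest to them. The mean of the mitosis list on an array ran from 9.72 to 10.2 in the 13-matched and from 9.74 to 11.2 in the 16-matched lines, so the sets overlapped on the list's mean. Of 31 tested DNA replication genes, 29 were below 0 with a median of -0.52, and 0 were called. Pcna, the polymerase clamp, was at 13.4, 13.2, 13.5 and 13.2 against 14.04, 14.2 and 13.5 (-0.62 ± 0.17 SE, limma adjusted p = 0.076). On replicate 4 alone the medians were -0.56 for mitosis and -0.44 for replication genes. The part of growth rate in the other differences was not tested.

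Serum response, stress and growth arrest genes were higher where called. Of 20 tested serum response genes 2 were called higher, Egr1 and Ier2, against 2.61% of all genes, with a median of 0.51 (0.69 on replicate 4). Atf3, induced by stress and serum, was at 7.18, 6.0, 6.57 and 7.19 against 5.29, 3.94 and 5.23 and lay just outside the threshold (1.92 ± 0.44 SE, limma adjusted p = 0.0503). Of 22 genes of the unfolded protein and amino acid responses 3 were called higher, Atf4, Canx and Trib3, against 2.61% of all genes. The list's median was 0.29 (0.41 on replicate 4). Canx, the endoplasmic reticulum chaperone calnexin, was at 14.2, 14.2, 14.05 and 14.3 against 13.5, 13.6 and 13.8 (0.53 ± 0.10 SE, limma adjusted p = 0.029), and its other probe sets gave 0.20 and 0.10 and did not pass. Trib3, a target of Atf4, was at 11.4, 11.6, 11.9 and 11.3 against 9.42, 9.57 and 10.8 (1.64 ± 0.32 SE, limma adjusted p = 0.033). In all 3 genes the sets were separate, with the narrowest gap for Canx. Of 18 p53 and cell cycle inhibitor genes, 1 was called higher, against 2.61% of all genes, and the list's median was 0.49. The called gene was the growth arrest gene Gadd45a, at 11.2, 10.9, 11.2 and 10.7 against 8.39, 9.04 and 10.3 (1.77 ± 0.40 SE, limma adjusted p = 0.048).

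Immune-related lists had few tested members and few calls. Of 10 tested interferon response genes, 2 were called higher, Ifi202b and Bst2, against 2.61% of all genes, and the median was 0.21. Bst2, the antiviral membrane protein tetherin, was at 7.59, 8.09, 8.05 and 7.74 against 5.01, 6.69 and 6.10 (1.94 ± 0.39 SE, limma adjusted p = 0.034). Gbp2, an interferon-induced GTPase gene, was at 7.46 on replicate 4 and 8.67 to 8.84 on the other 13-matched lines, against 7.33, 7.16 and 5.45, and did not pass (1.80 ± 0.52 SE, limma adjusted p = 0.088). The Bst2 window is shown because interferon response genes are known to carry the interferon-stimulated response element (ISRE) (GAAA, any 2 bases, GAAA, or on the other strand TTTC, any 2 bases, TTTC). The capitals mark 2 overlapping matches, together from base -130 to base -115, in the RefSeq sequence of chr8:71537473-71537722 on the minus strand of GRCm38.p6, 5' to 3'.
Bst2: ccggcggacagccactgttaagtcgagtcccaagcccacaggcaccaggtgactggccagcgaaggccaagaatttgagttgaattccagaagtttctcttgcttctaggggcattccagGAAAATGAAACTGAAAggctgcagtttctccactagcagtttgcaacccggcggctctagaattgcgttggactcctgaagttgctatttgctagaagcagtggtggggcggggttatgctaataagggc
This element was found in 2.98% of the 32851 windows and in 187 of the 6071 tested genes with one (3.08%), and in 5 of 157 called higher and 4 of 67 called lower genes. Neither strand of it overlaps the CArG box.

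All 6 tested antigen presentation genes had differences above 0, against 3929 of all 7382 genes, with a median of 0.75 (0.58 on replicate 4). Of them 1 was called higher, against 2.61% of all genes. H2-K1, a class I major histocompatibility gene with close paralogs, was at 11.0, 10.9, 10.9 and 10.7 against 9.10, 8.91 and 9.73 (1.64 ± 0.22 SE, limma adjusted p = 0.013). H2-D1, another class I gene, was at 11.5, 11.4, 11.2 and 11.0 against 9.73, 9.58 and 11.0 (1.17 ± 0.33 SE, limma adjusted p = 0.085). The sets overlapped in this probe set through 16-matched replicate 3, while the other H2-D1 probe sets gave 4.16 and 1.27 (limma adjusted p = 0.0020 and 0.056 over all probe sets). The other H2-K1 probe sets gave 0.78 and 1.31 and did not pass. Of 12 secreted inflammatory factors, 2 were called higher, Cxcl5 and Cxcl14, against 2.61% of all genes, and the median of 0.71 was 0.12 on replicate 4. Cxcl14, a chemokine of skin and connective tissue, was at 9.13, 9.90, 10.7 and 9.92 against 8.03, 7.86 and 7.12 (2.23 ± 0.37 SE, limma adjusted p = 0.021).

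Among 28 growth factors and their binding proteins, 3 were called higher and 1 lower, against 2.61% and 1.29% of all genes, with a median of 0.23 (0.05 on replicate 4). The insulin-like growth factor binding proteins differed in direction. Igfbp4 was at 12.6, 13.7, 13.3 and 13.8 against 11.5, 10.0 and 11.7 (2.27 ± 0.43 SE, limma adjusted p = 0.029) and, like Igfbp2, higher. Igfbp7 was lower, at 13.3, 13.2, 13.0 and 13.1 against 14.3, 13.8 and 14.4 (-0.999 ± 0.16 SE, limma adjusted p = 0.020). The third higher gene was Bmp4, a morphogen gene (2.61 ± 0.52 SE, limma adjusted p = 0.033).

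Of 16 Wnt pathway genes, 4 were called higher, against 2.61% of all genes, and 0 lower, and the median was 0.60, though 0.05 on replicate 4. Fzd4, a Wnt receptor, was at 9.13, 9.36, 9.53 and 10.1 against 5.51, 6.94 and 7.18 (2.98 ± 0.42 SE, limma adjusted p = 0.015). Rspo2, a secreted enhancer of Wnt signalling in limb and face, was at 9.52, 10.9, 11.5 and 11.4 against 8.67, 6.46 and 6.32 (3.69 ± 0.66 SE, limma adjusted p = 0.026). Ccn5, a secreted matricellular protein gene induced by Wnt, was at 11.8, 12.4, 12.7 and 12.3 against 10.4, 9.45 and 10.7 (2.11 ± 0.32 SE, limma adjusted p = 0.017). These 3 were without overlap, and Dkk2, a Wnt modulator, differed by 1.37 ± 0.31 SE (limma adjusted p = 0.047). The 4 are a receptor, an enhancer, a target and a modulator, and 6 of the 16 genes had differences below 0.

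Of 38 collagens and other matrix genes, 2 were called higher and 1 lower, against 2.61% and 1.29% of all genes. The list's median of 0.16 was -0.15 on replicate 4, so no common direction held. Fbn2, the fibrillin of embryonic microfibrils, was at 12, 13.2, 13.1 and 13.2 against 10.2, 9.44 and 11.2 (2.62 ± 0.43 SE, limma adjusted p = 0.020). Ogn, the small proteoglycan osteoglycin, was at 12.1, 13.3, 13.6 and 12.9 against 9.93, 10.9 and 11.2 (2.30 ± 0.39 SE, limma adjusted p = 0.021). Vcan, the large proteoglycan versican, was lower, at 10.9, 11.3, 11.1 and 10.8 against 11.7, 11.99 and 12.5 (-1.06 ± 0.21 SE, limma adjusted p = 0.034). A further Vcan probe set gave -1.17 (limma adjusted p = 0.055 over all probe sets) and another gave 0.38. Neither passed, and the latter disagrees in sign. Of 16 matrix proteases and inhibitors Mmp3 alone was called. Mmp13, a collagenase, was at 4.43, 8.10, 7.25 and 4.66 against 2.53, 2.12 and 2.72 (3.65 ± 0.87 SE, limma adjusted p = 0.055).

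Of 17 imprinted genes, which are expressed from 1 parental copy, 2 were called higher, against 2.61% of all genes, and the median of 0.43 was -0.16 on replicate 4. Mest, a paternally expressed gene, was at 11.2, 13.0, 13.1 and 12.6 against 9.71, 9.22 and 10.8 (2.56 ± 0.51 SE, limma adjusted p = 0.034). Rian, a maternally expressed non-coding RNA, was at 11.2, 12.4, 11.8 and 11.0 against 9.58, 10.2 and 9.62 (1.80 ± 0.34 SE, limma adjusted p = 0.029), while its other probe sets gave 0.39 and -0.41. Igf2, paternally expressed, was at 14.05, 14.6, 14.4 and 14.5 against 13.6, 12.3 and 13.5 and did not pass (1.23 ± 0.29 SE, limma adjusted p = 0.053), while its other probe set gave 2.54 (limma adjusted p = 0.028 over all probe sets). The sets did not overlap in any of the 3.

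Housekeeping lists had medians near that of all genes. The median was 0.01 for 22 ribosomal protein genes, of which 0 were called, and this value was -0.01 after centring or quantile normalization. It was 0.03 for 29 oxidative phosphorylation genes, of which 1 was called lower: Uqcrb, a subunit of respiratory complex III, at 14.4, 14.4, 14.5 and 14.5 against 14.9, 14.8 and 14.8 (-0.34 ± 0.07 SE, limma adjusted p = 0.046), with a further probe set at -0.09. Of 19 glycolysis genes 0 were called, with a median of 0.12, and of 17 Nrf2 and glutathione genes 0, with 0.07. Of 19 genes of cholesterol and fatty acid synthesis 1 was called higher, Fdft1, squalene synthase (0.81 ± 0.18 SE, limma adjusted p = 0.046), and the median of 0.21 was -0.15 on replicate 4. These shares lie near the background of 3.9% called.

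**Figure D4:**
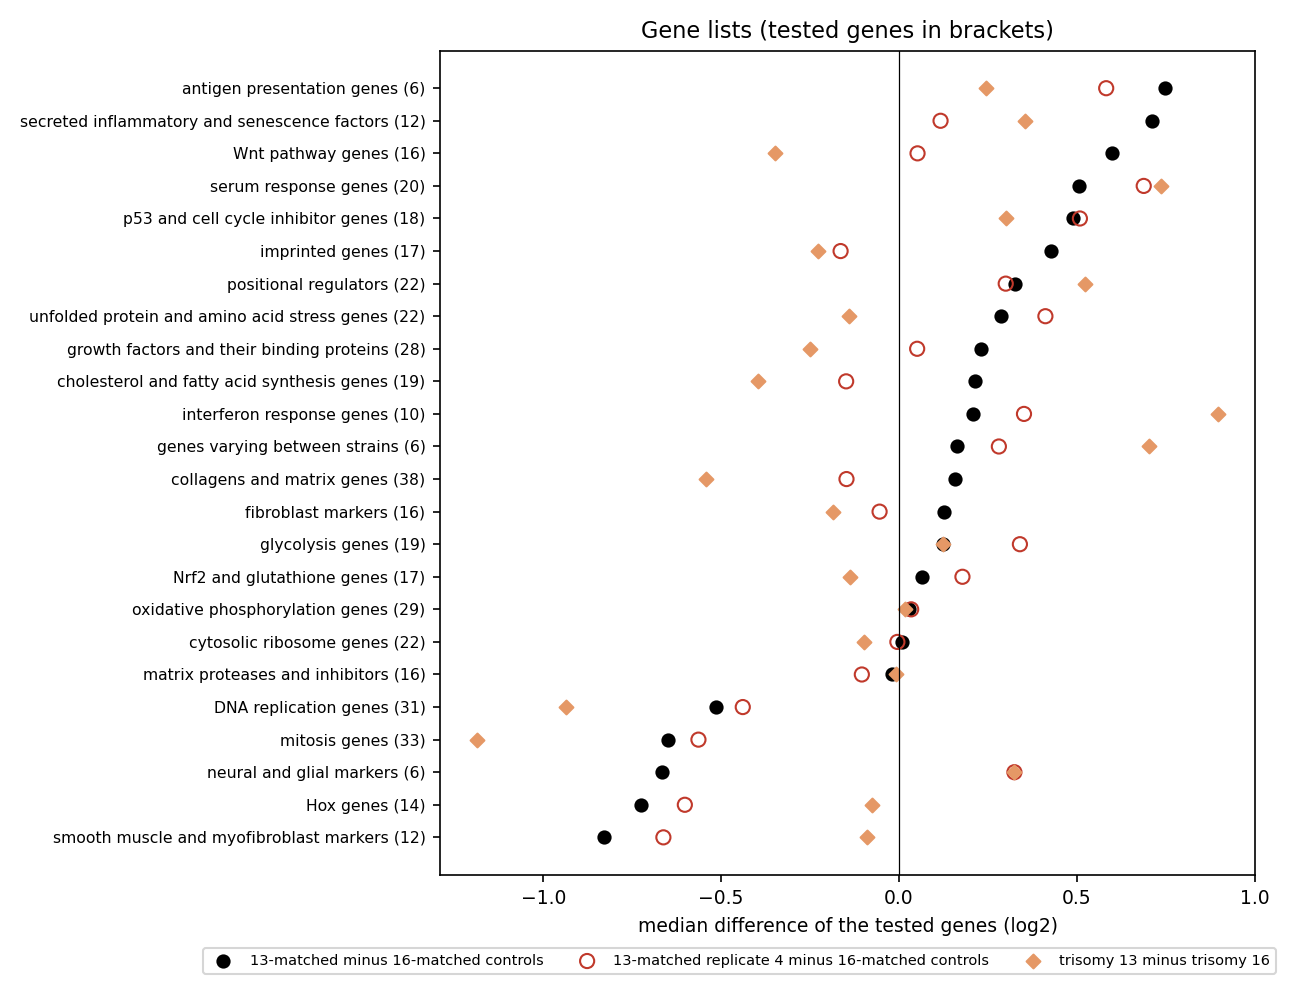
For each gene list drawn, with the number tested in brackets, the median log2 difference is given for all 13-matched minus 16-matched controls (filled circles), for 13-matched replicate 4 alone (open circles) and for trisomy 13 minus trisomy 16 lines (diamonds). The mitosis, replication, smooth muscle and Hox lists lay below 0 on all 3 measures. In the trisomic lines, however, the smooth muscle and Hox medians were near that of all genes (-0.09 and -0.08 against 0.03). The mitosis and replication medians there were -1.19 and -0.94. The imprinted, matrix and cholesterol lists lay above 0 for the full sets and below 0 for replicate 4 and in the trisomic lines (-0.23, -0.54 and -0.40 there). The Wnt, growth factor and unfolded protein lists, above 0 for the full sets, were below 0 in the trisomic lines (-0.35, -0.25 and -0.14). The fibroblast, Nrf2 and ribosome lists, with full-set medians of 0.13 or less, also went below 0 there. The neural list went from -0.66 to 0.32.

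Apart from the smooth muscle list, most markers of other cell types lay below the expression limit, and those called were Tnnt2 of muscle and Mcam of pericytes, both lower in the 13-matched lines. The other tested pericyte markers had differences above 0. Of 17 macrophage markers 4 were tested, and the highest mean over the 18 arrays was 4.95. Lyz2, the lysozyme of macrophages, was at 4.41, 3.80, 2.96 and 5.12 against 2.37, 2.97 and 2.74 (1.37 ± 0.49 SE, limma adjusted p = 0.14), and was higher on the other controls, at 8.73 and 6.58. None of the 8 liver and erythroid markers on the array was tested, with a highest mean of 2.57. The called member of the 3 tested skeletal and cardiac muscle markers was Tnnt2, and the summed level of this list ran without overlap, its array mean from 7.39 to 8.85 in the 13-matched and from 9.42 to 10.2 in the 16-matched lines. The other 12 of its 15 markers were below the limit for testing, and a part of muscle cells in the differences was not tested. Of the endothelial (2 tested), epithelial (2), neural (6), adipocyte (3) and cartilage (3) lists 0 genes were called. Krt18, a simple epithelial keratin, was at 6.38, 3.88, 4.97 and 4.56 against 6.88, 7.27 and 6.05 (-1.78 ± 0.57 SE, limma adjusted p = 0.11), with overlap through replicate 4. In these bulk cultures, fewer cells of a type and less RNA per cell cannot be told apart.

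Called genes lay on every autosome. The share ran from 1.92% of the genes tested on chromosome 14 (5 of 261) to 7.14% on chromosome 15 (20 of 280), and the median difference per autosome from -0.01 to 0.08. On chromosomes 13 and 16, which are extra in the matching trisomic lines but normal here, 15 of 277 genes (5.42%) and 12 of 243 (4.94%) were called, with medians of -0.01 and 0.07. The X chromosome had 11 genes higher and 1 lower of 238 (5.04%). Kdm6a, a histone demethylase gene that escapes X inactivation, was 1 of the 11 and is named after its values were seen: 9.40, 10.1, 10.1 and 10.3 against 7.78, 8.50 and 7.83 (1.93 ± 0.29 SE, limma adjusted p = 0.015).

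The 2 other control lines, which entered no part of the test, were nearer the 13-matched mean than the 16-matched mean for most called genes: replicate 8 for 228 of 288 (79.2%) and replicate 9 for 230 (79.9%). Both have high Xist, at 13.6 and 10.3, as 3 of the 4 13-matched lines do. Their values fell inside the range of the 13-matched lines for 112 and 113 genes and inside that of the 16-matched lines for 14 and 23. For the genes called lower, replicates 8 and 9 were nearer the 13-matched mean in 72 and 69 of 95. Ifi202b went the other way on both, and Serpinb6b was at 6.14 and 5.90, inside the 16-matched range. Tmcc3 was at 5.27 and 3.10, outside the 13-matched range on either side. Being 1 line each, they give no test.

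The lines with an extra chromosome 13 or 16 share first numbers with the 2 control sets but are different arrays, so they give a further look at the same genes. The 288 called genes include 261 off chromosomes 13 and 16. Of these, 240 (92%) had the same direction in trisomy 13 minus trisomy 16 lines, against 66.5% of all 6862 genes tested off those chromosomes. They were 160 of the 176 higher and 80 of the 85 lower genes. The same direction with an unadjusted p below 0.05 was seen for 105 of the 261 (40.2%), while 10.1% of all 6862 genes had such a p in either direction. The median trisomic difference was 0.98 where the controls had 1.59 among higher genes, and -0.77 where they had -1.18 among lower genes. Because the genes were chosen by their control differences, smaller values on other arrays follow in part from that choice. Adjusted over all genes, 2 of 7382 passed in the trisomic lines (0.0271%), Ifi202b at 6.61 ± 0.48 SE (limma adjusted p = 0.0051) and Sfrp2. This count was 50 without the 3 3'-biased arrays and 297 with all 18 arrays in the fit. It was 22, 0 and 0 without trisomy 16 replicates 1, 2 and 3, and 1, 2, 4 and 1 without trisomy 13 replicates 1, 2, 3 and 4.

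Xist was not aligned with this second comparison: it was high on 1 of 4 trisomy 13 lines (replicate 4, 11.2) and on 1 of 3 trisomy 16 lines (replicate 3, 11.8), and at 2.20 to 2.56 on the other 5. Without both of these arrays 93.1% of the 261 genes had the direction of the control lines, and without the 3 3'-biased arrays 89.3% did. Leaving out 1 trisomic line at a time gave 88.9% to 93.1%. The extra chromosomes themselves differ between the trisomic groups, and their part in genes elsewhere cannot be told apart from that of the first numbers.

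Tnnt2 and Rspo2 kept their difference in the trisomic lines. Tnnt2 was at 4.37, 4.51, 6.44 and 4.01 with trisomy 13 and at 9.49, 9.83 and 9.49 with trisomy 16, a difference of -4.77 ± 0.61 SE by limma (unadjusted p = 5.1e-05). Rspo2 was at 10.6, 10.6, 11.2 and 12.4 against 9.34, 7.05 and 6.55 (3.56 ± 0.73 SE, limma unadjusted p = 0.0013). Egr1 was at 12.6, 12.8, 12.5 and 12.03 against 11.0, 10.7 and 11.0 (1.60 ± 0.24 SE, limma unadjusted p = 0.00015). The groups did not overlap in these 3 genes, and the lines of each group lay near the controls of the same first numbers in Egr1. Pax3 was at 5.69 to 7.31 against 3.84 to 5.14 (2.27 ± 0.54 SE, limma unadjusted p = 0.0028), and Igfbp2 at 12.6 to 14.4 against 11.0 to 12.2 (1.75 ± 0.44 SE, limma unadjusted p = 0.0038).

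Other genes with a large difference between the controls had a smaller or an opposite one in the trisomic lines. Lum was at 8.06, 10.1, 9.01 and 8.73 with trisomy 13 and at 7.37, 9.64 and 8.28 with trisomy 16 (0.54 ± 0.65 SE, limma unadjusted p = 0.43). Cbr2 was at 7.32, 8.97, 4.67 and 2.30 against 3.09, 3.53 and 5.58 (1.75 ± 1.5 SE, limma unadjusted p = 0.28), with overlap. Its values of 4.67 and 2.30 with trisomy 13 and of 3.09 with trisomy 16 came from 3'-biased arrays. The line at 2.30 also had high Xist. On the arrays without this bias the groups did not overlap in Cbr2, at 7.32 and 8.97 against 3.53 and 5.58. Agtr2 differed by -0.24 ± 1.11 SE. Of the 261 genes 21 had the opposite direction, and 1 of these had an unadjusted p below 0.05: Mest, at 8.97, 8.93, 9.29 and 9.13 against 10.0, 9.68 and 11.2 (-1.23 ± 0.41 SE, limma unadjusted p = 0.016). Mest was thus higher in the 13-matched controls and at lower values in the trisomy 13 lines, without overlap in either comparison.

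Sfrp2, a secreted Wnt inhibitor gene of the Wnt list, was not called in the controls, at 3.94, 11.1, 10.8 and 9.88 against 5.81, 2.26 and 3.22 (5.17 ± 1.68 SE, limma adjusted p = 0.12). In the trisomic lines it ran the other way, at 2.00 to 2.98 with trisomy 13 and 6.98 to 8.06 with trisomy 16 (-4.81 ± 0.45 SE, limma adjusted p = 0.019). Testing the difference between the control and the trisomic comparison across 6862 genes gave 0 genes by limma at an adjusted p below 0.05 (0.0%), with 360 (5.25%) at an unadjusted p below 0.05 and a smallest adjusted p of 0.24. Of the 261 called genes, 46 had an unadjusted p below 0.05 for this difference. The control difference by which these genes were chosen is part of this test, so that count is raised by the choice. A change of a gene's difference between control and trisomic lines was therefore not shown by this test for any single gene.

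**Figure D5:**
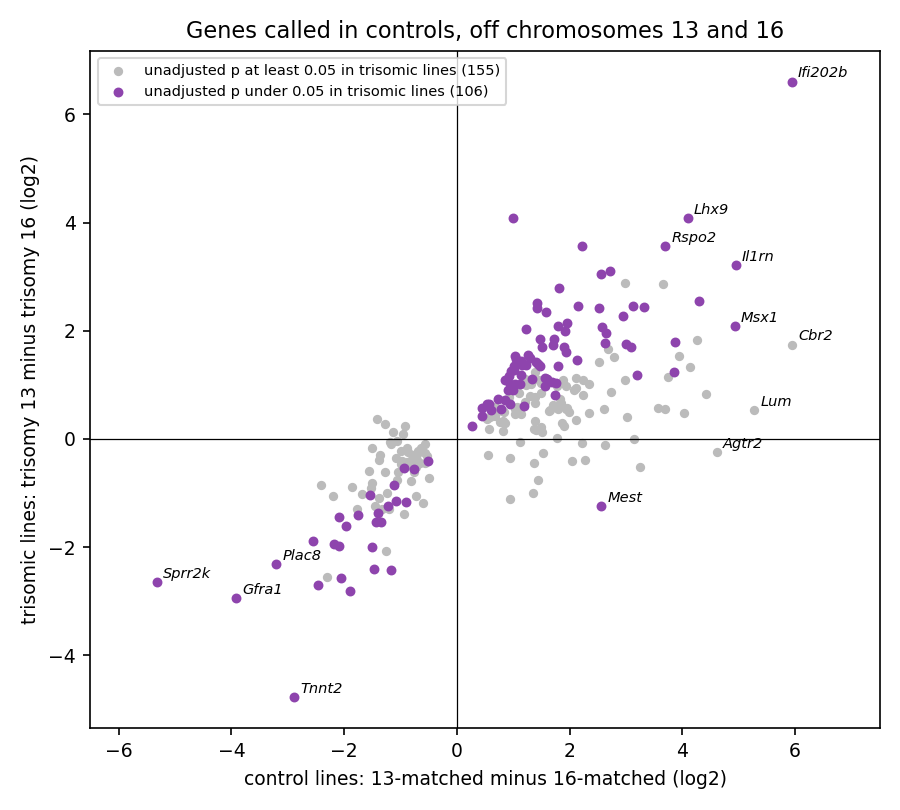
Each point is 1 of the 261 genes called between the control sets and lying off chromosomes 13 and 16, with its difference between the control sets on the horizontal axis and its difference between trisomy 13 and trisomy 16 lines on the vertical axis, both log2. Most points, 240, lie at the lower left or upper right, and Ifi202b is at the upper right corner while Mest lies below the horizontal line.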

How the data were processed

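The values analysed are the deposited table of 1 array per line. Per the submitters' processing notes, the authors made these log2 expression values with GCRMA in the affy software; no settings are stated there. GCRMA subtracts a modelled background, so differences of genes near the low end depend on that model. Probe sets with exactly 1 gene symbol (20393 of 22690; 691 had several and 1606 none) were kept, 1 per gene, that with the highest mean over the 18 arrays.

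Genes were compared with limma 3.58.1 in R 4.3.3 (lmFit, eBayes with a mean trend) on the 7 control arrays, 4 against 3, with 5 residual degrees of freedom and no covariate. A call is a 2-sided Benjamini-Hochberg adjusted p below 0.05 over 7382 genes. The same fit was made on the 7 trisomic arrays, and the difference of both comparisons on all 14. The number of arrays limits the precision. The fit was tested on simulated data. The labels pair no lines across the sets. Named genes are the 12 largest non-overlapping calls in each direction, up to 3 members of each list by p among those with unadjusted p below 0.05, and Xist and the Y-linked genes. The comparison and the lists were chosen with earlier results of these data known. Alternatives covered filters, probe set rules, scaling, the variance model, the arrays fitted, blocks, covariates and each line left out. Promoter windows and their RefSeq sequences are from GRCm38.p6.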

Additional observations from a re-analysis of the deposited data

Results flagged for a closer look

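Of 95 named genes, 9 (9.47%) had 1 of the 4 13-matched lines standing far from the other 3, beyond a limit that chance passes in about 1 in 20 groups. On replicate 4 there were 7. Its Xist level was 2.35 against 13.2 to 13.6 on the others, and its Y-linked levels were 10.79 against 2.85 to 3.13 for Eif2s3y, 7.644 against 2.30 to 2.33 for Kdm5d and 7.939 against 2.49 to 2.54 for Uty. Replicate 4 was also low for 3 autosomal genes: Fbn2 at 12 against 13.1 to 13.2, Gbp2 at 7.463 against 8.67 to 8.84, and Lum at 7.637 against 11.2 to 11.8. Replicate 5 had Hoxb2 at 3.388 against 3.45 to 3.46, a gap of little size in a gene near the low end of the scale. Replicate 7 had Ier2 at 11.18 against 10.8 on the other 3. The 16-matched set, with 3 lines, was not examined in this way.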

How the results depend on the processing

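The direction of the 288 called genes is fixed in most alternatives by the lack of overlap and says nothing about stability. Averaging a gene's probe sets, which uses other values, turned 3 of 281. The number called was 288 (193 higher, 95 lower). It was 92 (58, 34) with no filter on low values, 93 (70, 23) with all 18 arrays in the fit, and 1341 (814, 527) with the first number as a random block, whose estimated correlation was -0.456. Averaging probe sets gave 107 higher, and testing each probe set gave 156 lower. Leaving out 1 line gave 26 to 1175 called, 24 to 568 higher and 2 to 607 lower. Centring gave 330, quantile normalization 375, no variance trend 195 and all 9 controls 233. For these counts the cause was not tested.

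The 2 settings that follow were added after seeing the data. The Xist level as a covariate left 1 called (1 higher, 0 lower), and 13-matched replicate 4 alone against the 16-matched set left 0 (0, 0); both compare in effect 1 line with 3 and so have less power. Among the named genes only these 2 settings turned a direction: Kdm5d to 0.098 and 0.094, Eif2s3y to 0.55 and 0.54, and Uty to 1.40 and 1.39.

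Of 116 called genes with several tested probe sets, 28 had one of opposite sign. The share of called genes with the same direction in trisomic lines, 92%, ran from 78.7% (without 16-matched replicate 3) to 100%. No paired analysis was possible for the control sets because they share no replicate numbers. With a replicate block the trisomic share was 92.3%. The deviations of same-numbered trisomic lines had r = -0.73, 0.41 and -0.45. Over all pairs of trisomic lines r was positive where both or neither array was 3'-biased and negative otherwise. These values therefore cannot show whether the numbers pair the lines. The difference of both comparisons gave 0 adjusted calls without the 3'-biased arrays and with all 18 arrays (622 and 382 genes at an unadjusted p below 0.05, by limma).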

Other observations

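Some called genes outside the naming rule are given here, chosen after their values were seen, with differences in the order 13-matched minus 16-matched. Ahr, the ligand-activated receptor that induces xenobiotic-metabolising enzymes, was at 10.9, 11.6, 11.95 and 11.3 against 8.26, 6.97 and 7.40 (3.87 ± 0.35 SE, limma adjusted p = 0.0046). It was at 10.4 to 11.1 in trisomy 13 and at 8.24 to 9.85 in trisomy 16 lines. Tfap2a, a relative of Tfap2b on chromosome 13, was at 6.65, 6.95, 7.01 and 7.23 against 5.21, 5.17 and 5.06 (1.81 ± 0.24 SE, limma adjusted p = 0.012). With trisomy 13, where its chromosome is extra, Tfap2a was at 6.85 to 7.01, no higher than in the 13-matched controls. Meox1, a homeobox gene of somites, differed by 3.85 ± 0.39 SE (limma adjusted p = 0.0053).

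The complement protease genes C1ra and C1s1 differed by 3.25 ± 0.51 SE and 3.70 ± 0.43 SE (limma adjusted p = 0.017 and 0.0064), and in the trisomic lines both overlapped between the groups. Osmr, a receptor of the interleukin-6 family, was at 12.1, 12.8, 12.7 and 12.7 against 11.05, 11.4 and 11.4 (1.30 ± 0.20 SE, limma adjusted p = 0.017), and Socs3, a feedback inhibitor of such receptors, differed by 1.85 ± 0.36 SE (limma adjusted p = 0.031). Snai1, a transcription factor of epithelial to mesenchymal transition, was lower, at 6.96, 7.24, 7.28 and 7.25 against 9.27, 8.63 and 9.92 (-2.09 ± 0.31 SE, limma adjusted p = 0.015). It also was at lower values in trisomy 13 than in trisomy 16 lines, 6.43 to 7.90 against 8.53 to 9.99, without overlap.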
